A study of Mus musculus with 24 samples.

Results

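The 10 genes described here encode feedback inhibitors of mitogen-activated protein kinase (MAPK) signalling: the phosphatases Dusp1, Dusp4, Dusp5 and Dusp6, the Sprouty proteins Spry1, Spry2 and Spry4, the Sprouty-related proteins Spred1 and Spred2, and Phlda1. They were chosen by symbol, from 47480 genes in the deposited count table, and all 10 were among the 14772 genes that passed the filter on low counts. Messenger RNA of wild type mouse embryonic fibroblasts was sequenced in 24 libraries, 3 for each of 8 groups. Every group received an siRNA, either the control siCTRL or siCop1 against Cop1, and was labelled DMSO (the solvent) or KL001 (a small molecule that stabilises the cryptochrome proteins of the circadian clock). The remaining factor was Dexa, a label kept as written and absent from the groups named without it. The 8 groups were therefore siCTRL DMSO, siCTRL DMSO Dexa, siCTRL KL001, siCTRL KL001 Dexa, siCop1 DMSO, siCop1 DMSO Dexa, siCop1 KL001 and siCop1 KL001 Dexa. The sources used here give no dose or exposure time. They do not say whether the 3 libraries of a group came from separate cultures, so p-values measure the spread between these libraries, which may be technical. The comparisons ask what loss of Cop1, Dexa and KL001 each did to the inhibitors, and whether the response to Dexa differed after siCop1.

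In the MAPK pathway, growth factor receptors activate Ras, which switches on the kinases RAF, MEK and ERK in turn, and ERK drives a transcriptional programme that includes its own inhibitors. The dual-specificity phosphatases remove phosphate from MAPKs: Dusp5 (nuclear) and Dusp6 (cytoplasmic) act mainly on ERK, whereas Dusp1 and Dusp4 (both nuclear) also act on p38 and JNK. Sprouty and Spred proteins act upstream, between the receptor and RAF, and Spred proteins bring the Ras inactivator neurofibromin to the membrane. Phlda1 is a pleckstrin-homology domain protein whose transcript is induced by growth factor signalling. Cop1 is a ubiquitin ligase component that targets transcription factors for degradation, among them ETS family members and Jun, which act downstream of MAPKs. Glucocorticoids are known to induce Dusp1 in many cell types.

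Library totals ran from 21409988 to 27875023 counts. The targeted gene, listed under its older symbol Rfwd2, was at 24.99 to 29.72 CPM (counts scaled to the library total) in the 12 siCTRL libraries and at 4.33 to 5.79 CPM in the 12 siCop1 libraries, so every library matched its siRNA label. Fkbp5, a standard glucocorticoid target, rose with Dexa from 36.4 ± 0.969 to 719 ± 7.13 CPM (SD, n = 3) in siCTRL DMSO. Of 10 fibroblast markers, 9 had a mean of at least 1 CPM, and the list summed to 41082 to 58363 CPM per library. Of 10 heart muscle markers, 6 had a mean of at least 1 CPM, and their sum was near 0 in most libraries but not in all. It was 25.7 to 82.5 CPM in the 3 siCTRL DMSO libraries and 32.2 to 121 CPM in replicate 2 of each other siCTRL group. It was 1.25 to 3.58 CPM in the 12 siCop1 libraries. The heart muscle genes Myh6, Actc1, Myl2 and Tnnt2 reached 29.96, 28.04, 21.5 and 18.6 CPM in single libraries and had medians of 0, 0, 0.0390 and 0.119 CPM over all 24. In bulk RNA, fewer cells of a type and less RNA per cell cannot be told apart.

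In the control cells (siCTRL DMSO) the inhibitors spanned a wide range of levels. Per kilobase of annotated exon, which allows levels of different genes to be compared, Spred1 was highest at 18.6 ± 1.15 CPM per kb (SD, n = 3). Spry2 followed at 13.1 ± 0.270, Phlda1 at 12.6 ± 0.10, Dusp1 at 11.96 ± 0.188, Dusp6 at 9.17 ± 0.482 and Spred2 at 8.77 ± 0.706 CPM per kb. Spry1 at 4.05 ± 0.468, Spry4 at 3.63 ± 0.328 and Dusp5 at 3.62 ± 0.161 CPM per kb were lower. Dusp4 was lowest, at 0.771 ± 0.0762 CPM per kb. Spry4 and Dusp5 differed by less than their SDs, as did Dusp6 and Spred2. All other values below are CPM of a gene compared with itself.

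Across the 8 groups Dusp4 varied most, with a 5.42-fold difference between its highest and lowest group means, followed by Phlda1 at 4.01-fold, Dusp6 at 2.48-fold and Dusp1 at 2.17-fold. Dusp5 spanned 1.93-fold, Spry2 1.73-fold and Spry4 1.66-fold. The range was narrow for Spry1 (1.31-fold), Spred1 (1.26-fold) and Spred2 (1.21-fold). Of the 10, 6 had their highest mean in siCop1 DMSO: Dusp4, Dusp6, Spry2, Spred1, Spred2 and Phlda1. Dusp1 and Dusp5 were highest in siCTRL KL001 Dexa, and Spry1 and Spry4 in siCTRL DMSO.

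**Figure D1:**
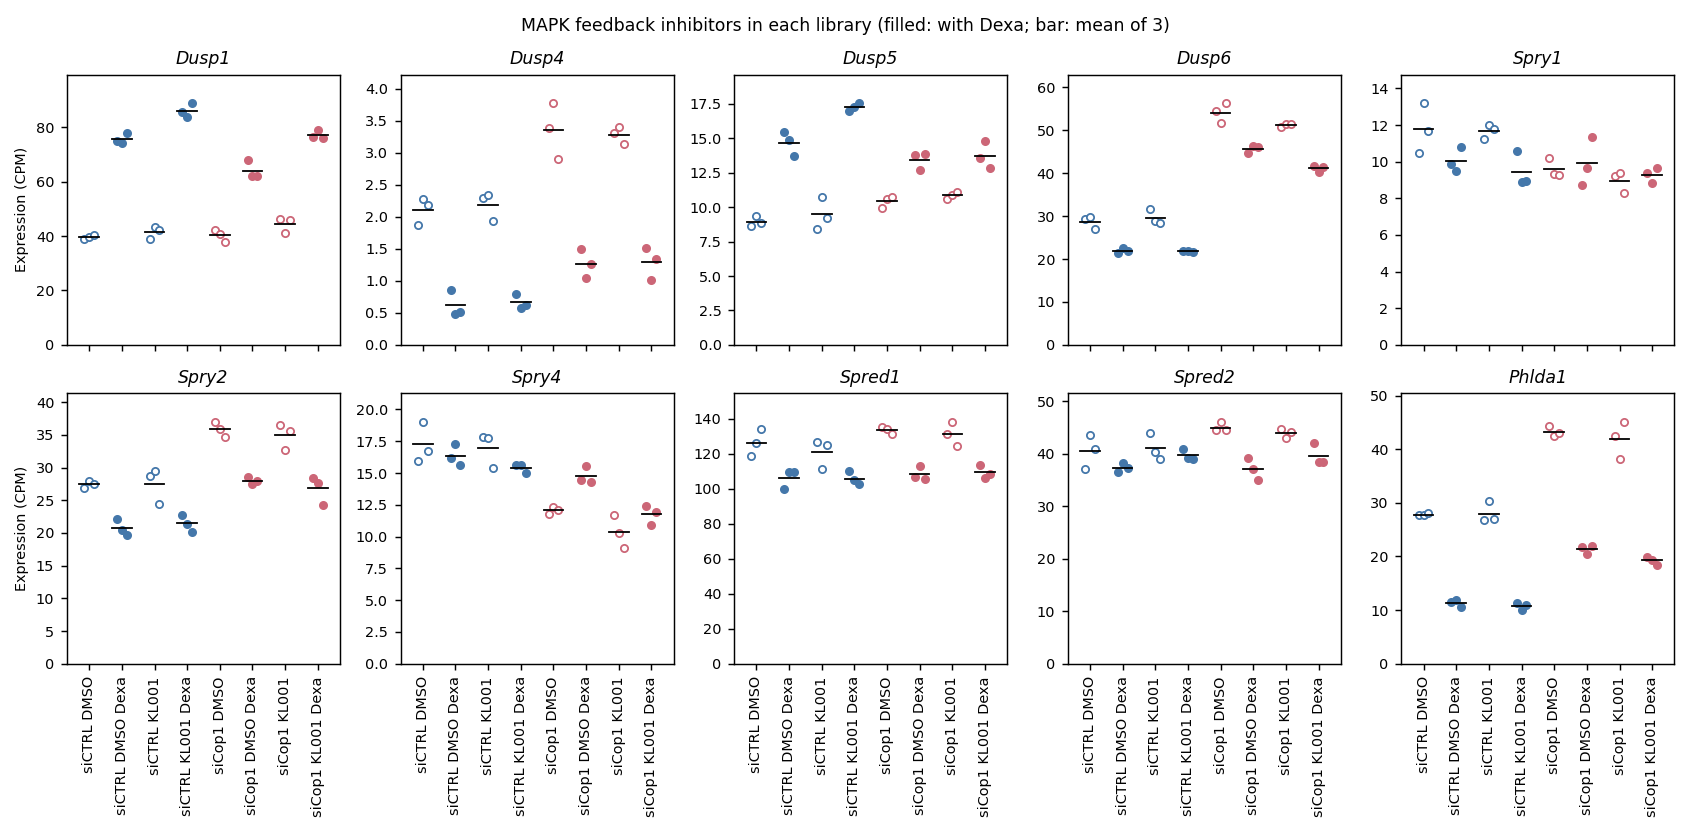
Level of each of the 10 inhibitors in CPM (vertical axis, a separate scale starting at 0 for each gene) in all 24 libraries, arranged by group along the horizontal axis; each point is 1 library (blue siCTRL, red siCop1, filled with Dexa) and each short bar a group mean of 3. All 12 siCop1 libraries lie above all 12 siCTRL libraries for Dusp6, and all 12 Dexa libraries lie above all 12 others for Dusp1 and Dusp5 and below them for Dusp4 and Phlda1. The share of all genes separated in these ways was not computed.

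Silencing of Cop1 raised 4 of the inhibitors in every setting, namely Dusp6, Dusp4, Phlda1 and Spry2. The share of all genes raised in every setting was not computed. Spry1 was lower after siCop1 when Dexa was absent, and Spry4 in every setting other than DMSO with Dexa. In DMSO without Dexa, 8 of 10 inhibitors changed (adjusted p below 0.05), where 29.4% of all genes tested did. Of these, 6 rose, against 12.8% of all genes, and 2 fell, against 16.6%. The median log2 change of the 10 was 0.19 there and 0.16 in KL001 when Dexa was absent, but 0.01 (DMSO) and 0.02 (KL001) when it was present. That of all genes was between -0.0102 and 0.00268 in the 12 comparisons between groups. In DMSO with Dexa, 5 changed, with 31.1% of all genes changed; 4 rose, against 14.4%, and 1 fell, against 16.7%. In KL001 without Dexa, 7 changed (32.7% of all genes), of which 5 rose (14.5% of all genes) and 2 fell (18.2%). In KL001 with Dexa, 7 changed (30.1% of all genes), of which 4 rose (13.7%) and 3 fell (16.3%). The 4 siCop1 comparisons share no library with each other, but each group serves also in a Dexa and a KL001 comparison.

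Dusp6, the cytoplasmic ERK phosphatase (chr10:99263231-99267489, plus strand, GRCm38), showed the clearest separation by siRNA. Its 3 siCTRL DMSO libraries held 29.3, 29.8 and 27.0 CPM and the 3 siCop1 DMSO libraries 54.4, 51.7 and 56.3 CPM. With Dexa the siCTRL DMSO libraries held 21.4, 22.5 and 21.8 CPM and the siCop1 libraries 44.7, 46.3 and 46.2 CPM. In KL001 the siCTRL libraries held 31.6, 28.9 and 28.4 CPM and the siCop1 libraries 50.7, 51.4 and 51.4 CPM. With KL001 and Dexa these were 21.9, 21.9 and 21.6 CPM against 41.6, 40.4 and 41.6 CPM. The lowest siCop1 library (40.4 CPM) was thus above the highest siCTRL library (31.6 CPM) whatever else was added. The fold difference was 1.88 in DMSO (log2 0.91, SE 0.0447, adjusted p = 1.04e-15; all adjusted p-values are from edgeR and corrected over all genes tested), 2.09 with Dexa, 1.73 in KL001 and 1.89 in KL001 with Dexa.

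Dusp4, a nuclear phosphatase (chr8:34807297-34819894, plus strand), was the scarcest of the 10, with 11 to 97 reads per library. It held 1.88, 2.27 and 2.18 CPM in siCTRL DMSO and 3.39, 3.77 and 2.90 CPM in siCop1 DMSO, without overlap. With Dexa the same comparison gave 0.856, 0.482 and 0.518 against 1.498, 1.04 and 1.26 CPM. The fold difference was 1.59 in DMSO (log2 0.67, SE 0.167, adjusted p = 0.00247), 2.02 with Dexa, 1.5 in KL001 and 1.93 in KL001 with Dexa. Standard errors of Dusp4 were several times those of the abundant members, so the order of these 4 folds was not resolved.

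Phlda1 (chr10:111506286-111508645, plus strand) was at 27.7, 27.7 and 28.04 CPM in siCTRL DMSO and at 44.3, 42.5 and 43.0 CPM in siCop1 DMSO. With Dexa the siCTRL libraries held 11.5, 11.97 and 10.6 CPM and the siCop1 libraries 21.8, 20.5 and 21.9 CPM. Its fold difference was 1.56 in DMSO (log2 0.64, SE 0.0564, adjusted p = 3.05e-10), 1.89 with Dexa, 1.5 in KL001 and 1.78 in KL001 with Dexa. The groups with siCop1 and Dexa stayed below those with siCTRL and no Dexa, so for Phlda1 the Dexa difference was the larger of the pair.

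Among the Sprouty genes the directions differed. Spry2 (chr14:105891947-105896819, minus strand) rose from 26.8, 27.95 and 27.5 CPM in siCTRL DMSO to 36.9, 36.0 and 34.7 CPM in siCop1 DMSO, a 1.31-fold difference (log2 0.39, SE 0.0631, adjusted p = 1.74e-05). In the other 3 settings its fold was 1.25 to 1.35. Spry4 fell from 16.0, 19.0 and 16.8 CPM to 11.8, 12.3 and 12.1 CPM, which is 1.42-fold lower (log2 -0.51, SE 0.0775, adjusted p = 6.07e-06). In KL001 it was 1.64-fold lower, and in KL001 with Dexa 1.31-fold lower. In DMSO with Dexa the log2 difference of Spry4 was -0.15 (adjusted p = 0.148), with 16.2, 17.3 and 15.6 CPM in siCTRL and 14.4, 15.5 and 14.3 CPM in siCop1.

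Spry1 (chr3:37639947-37644598, plus strand) was lower after siCop1 without Dexa, at 10.2, 9.33 and 9.27 CPM against 10.5, 13.2 and 11.7 CPM in DMSO. The log2 difference was -0.29 (SE 0.0897, adjusted p = 0.0151) in DMSO and -0.38 (SE 0.0907, adjusted p = 0.00150) in KL001. With Dexa it was -0.02 in DMSO and -0.03 in KL001, neither past the threshold. The call in DMSO without Dexa was lost without siCTRL DMSO replicate 2 (log2 -0.20, adjusted p = 0.145), siCop1 DMSO replicate 2 (log2 -0.27, adjusted p = 0.0589) or siCop1 DMSO replicate 3 (log2 -0.26, adjusted p = 0.0601).

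Dusp1, Dusp5 and the Spred genes moved little with siCop1 when Dexa was absent. Dusp1 held 39.0, 39.6 and 40.2 CPM in siCTRL DMSO and 42.4, 40.7 and 37.7 CPM in siCop1 DMSO, overlapping ranges with a log2 difference of 0.03 (95% interval -0.08 to 0.13). With Dexa, Dusp1 was lower after siCop1, by a log2 difference of -0.24 in DMSO (adjusted p = 0.000168) and -0.16 in KL001 (adjusted p = 0.00915). Dusp5 was called higher without Dexa, by 0.22 in DMSO (adjusted p = 0.0308) and 0.20 in KL001 (adjusted p = 0.0461), and lower in KL001 with Dexa, by -0.32 (adjusted p = 0.000480). In DMSO with Dexa its log2 difference was -0.13 (adjusted p = 0.163).

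The higher calls of Dusp5 without Dexa were marginal. In DMSO the call was lost when replicate 1 (adjusted p = 0.112) or 3 (0.0673) of siCTRL DMSO, or replicate 2 (0.0865) or 3 (0.0976) of siCop1 DMSO, was left out. It was lost there under DESeq2 as well (0.0568). In KL001 it was lost under DESeq2 (0.0894), with no filter on low counts (0.0811) and in a fit of only the compared groups (0.120). There it was also lost without siCTRL KL001 replicate 1 (log2 0.12, adjusted p = 0.273) or 3 (0.126), or without any 1 of the siCop1 KL001 libraries (0.0651 to 0.120). Spred2 was called higher in DMSO without Dexa (log2 0.15, SE 0.0529, adjusted p = 0.0267), a call lost without siCTRL DMSO replicate 1 (log2 0.09, adjusted p = 0.231) or siCop1 DMSO replicate 2 (log2 0.14, adjusted p = 0.0959). Leaving out siCop1 DMSO replicate 2 lost the calls of Dusp5, Spry1 and Spred2 together, bringing the count of changed inhibitors in that setting from 8 to 5. Spred1 passed the threshold in none of the 4 settings, with log2 differences of 0.03 to 0.12.

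The heart muscle transcripts moved with siRNA, since only siCTRL libraries held them above 10 CPM in sum. All 3 siCTRL DMSO libraries were above that level, so the comparison in DMSO without Dexa could not be made without them, and their part in it was not tested. In the other 3 settings 1 siCTRL library each was above it, and all 19 siCop1 calls on the inhibitors (5, 7 and 7) were made again without those libraries, in the same direction. Within siCTRL these transcripts also differed between the control and the treated groups, since 3 of 3 siCTRL DMSO libraries were above 10 CPM but 1 of 3 in each of siCTRL DMSO Dexa, siCTRL KL001 and siCTRL KL001 Dexa. The Dexa, KL001 and pathway list comparisons that use siCTRL DMSO as control carry this difference. So do the terms described below that compare the Dexa response between siCop1 and siCTRL in DMSO, and the averages over settings. The part of the heart muscle transcripts in all of these was not tested. The Dexa and KL001 comparisons within siCop1 use only libraries at 1.25 to 3.58 CPM.

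**Figure D2:**
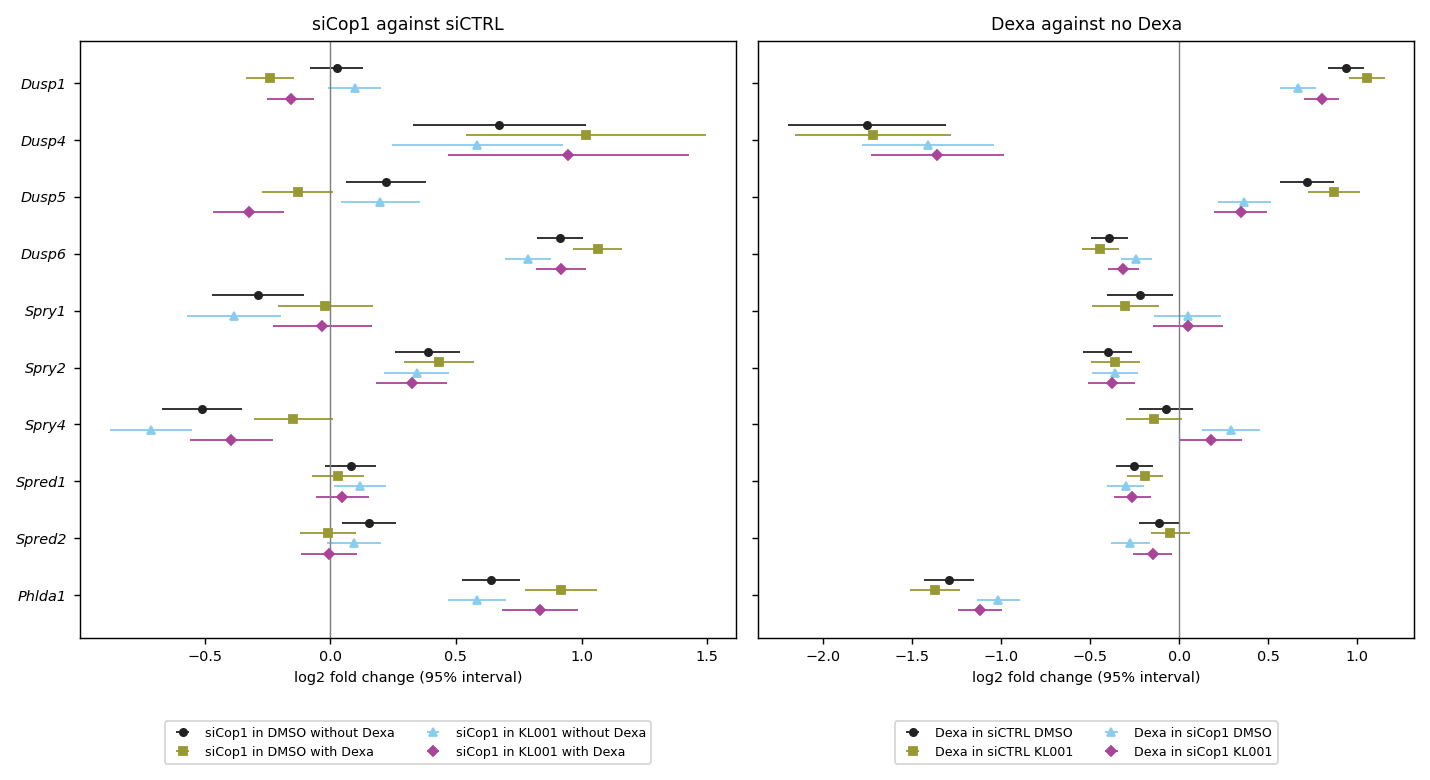
Log2 fold change of each inhibitor (horizontal axis) after siCop1 against siCTRL in 4 settings (left) and with Dexa against none in 4 settings (right); points are estimates from all 24 libraries and lines 95% intervals. Dusp6, Dusp4, Phlda1 and Spry2 lie to the right of 0 in all 4 siCop1 settings, and with Dexa only Dusp1 and Dusp5 lie to the right of 0 in all 4.

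Dexa divided the phosphatases: Dusp1 and Dusp5 rose and Dusp4 and Dusp6 fell, in all 4 settings, and Phlda1, Spry2 and Spred1 fell with the latter. In siCTRL DMSO, 7 of 10 inhibitors changed, where 26.8% of all genes tested did. Of these, 2 rose, against 12.7% of all genes, and 5 fell, against 14.1%. In siCTRL KL001, 8 changed (26.8% of all genes), of which 2 rose (12.7%) and 6 fell (14%). In siCop1 DMSO, 9 changed (23.7% of all genes), of which 3 rose (12%) and 6 fell (11.6%). In siCop1 KL001, 8 changed (24.5% of all genes), of which 2 rose (12.1%) and 6 fell (12.4%). The median log2 change of the 10 lay between -0.26 and -0.21 in the 4 settings. The summed level of 4 adipocyte markers also moved with Dexa, from 15.8 to 24.3 CPM in the libraries without it to 52.3 to 81.0 CPM with it. Almost all of this was Fabp4 (15.8 to 81.0 CPM over all libraries), while the defining adipocyte genes Adipoq and Plin1 had a median of 0 and a maximum of 0.116 and 0.0405 CPM.

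Dusp1 (chr17:26505590-26562128, minus strand) rose in siCTRL DMSO from 39.0, 39.6 and 40.2 CPM to 75.0, 74.1 and 77.8 CPM with Dexa. In siCTRL KL001 it rose from 38.9, 43.1 and 42.4 to 85.7, 83.8 and 88.7 CPM. After siCop1 it rose from 42.4, 40.7 and 37.7 to 68.0, 62.2 and 61.9 CPM in DMSO, and from 46.2, 41.0 and 45.8 to 76.5, 79.0 and 76.0 CPM in KL001. The highest library without Dexa (46.2 CPM) was below the lowest with Dexa (61.9 CPM). The fold was 1.91 in siCTRL DMSO (log2 0.93, SE 0.0490, adjusted p = 1.40e-15), 2.08 in siCTRL KL001, 1.59 in siCop1 DMSO and 1.74 in siCop1 KL001. Annotated exons of Dusp1 overlap those of Ergic1 on the opposite strand. Ergic1 was at 324 to 413 CPM and its log2 change with Dexa in siCTRL DMSO was 0.19, and the sources used here do not say whether counting used strand.

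Dusp5 (chr19:53529109-53542431, plus strand), the nuclear ERK phosphatase, rose in siCTRL DMSO from 8.62, 9.39 and 8.82 CPM to 15.5, 14.9 and 13.8 CPM. In siCTRL KL001 it rose from 8.43, 10.8 and 9.21 to 17.0, 17.3 and 17.5 CPM. After siCop1 the rise was smaller, from 9.95, 10.6 and 10.7 to 13.8, 12.7 and 13.8 CPM in DMSO and from 10.6, 10.9 and 11.1 to 13.6, 14.8 and 12.8 CPM in KL001. The fold was 1.65 in siCTRL DMSO (log2 0.72, SE 0.0744, adjusted p = 5.08e-09), 1.83 in siCTRL KL001, 1.29 in siCop1 DMSO and 1.27 in siCop1 KL001. As for Dusp1, no library without Dexa (at most 11.1 CPM) reached the lowest with it (12.7 CPM).

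The falls were deepest for Dusp4 and Phlda1. Dusp4 fell from 1.88, 2.27 and 2.18 to 0.856, 0.482 and 0.518 CPM in siCTRL DMSO, which is 3.38-fold lower (log2 -1.76, SE 0.216, adjusted p = 1.43e-07). It was 3.29-fold lower in siCTRL KL001, 2.66-fold in siCop1 DMSO and 2.56-fold in siCop1 KL001. Phlda1 was 2.45-fold lower in siCTRL DMSO (log2 -1.29, SE 0.0679, adjusted p = 1.48e-15), 2.58-fold in siCTRL KL001, 2.02-fold in siCop1 DMSO and 2.17-fold in siCop1 KL001. For both genes the lowest library without Dexa lay above the highest with it.

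Dusp6, Spry2 and Spred1 fell less. Dusp6 was 1.31-fold lower in siCTRL DMSO (log2 -0.39, SE 0.0499, adjusted p = 2.54e-07), and 1.18-fold to 1.36-fold lower across the 4 settings. Spry2 was 1.28-fold to 1.32-fold lower, and Spred1 (chr2:117121374-117182279, plus strand) 1.14-fold to 1.23-fold lower. Spred1 held 119, 126 and 134 CPM in siCTRL DMSO and 99.5, 109 and 109 CPM with Dexa, a small difference without overlap.

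Spred2 (chr11:19924375-20024026, plus strand) fell with Dexa after siCop1, by a log2 change of -0.28 in DMSO (adjusted p = 0.000181) and -0.15 in KL001 (adjusted p = 0.0419). In siCTRL its log2 changes were -0.11 and -0.05, which did not pass. The interaction term that compares the Dexa response of Spred2 between siCop1 and siCTRL in DMSO was not called either (-0.16, edgeR adjusted p = 0.627). The call of Spred2 in siCop1 KL001 was lost without siCop1 KL001 replicate 1, 2 or 3 (adjusted p 0.0516 to 0.130) or siCop1 KL001 Dexa replicate 2 (0.172) or 3 (0.145), and under DESeq2 with all libraries (0.0593). Spry1 fell in siCTRL KL001 (log2 -0.30, adjusted p = 0.0121), a call lost without siCTRL KL001 Dexa replicate 2 (log2 -0.25, adjusted p = 0.0834) or 3 (log2 -0.25, adjusted p = 0.0825). Spry4 rose in siCop1 DMSO, from 11.8, 12.3 and 12.1 to 14.4, 15.5 and 14.3 CPM (log2 0.29, SE 0.0793, adjusted p = 0.00653), and its log2 changes in siCTRL DMSO, siCTRL KL001 and siCop1 KL001 were -0.07, -0.14 and 0.18, none of which passed.

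Promoter sequence is shown for Dusp1 and Dusp5, which rose with Dexa, and for Dusp6, which fell with Dexa and rose after siCop1. Each run is the 250 bases before the RefSeq transcription start (GRCm38.p6), written 5′ to 3′ on the gene's strand. Capitals mark the CRE core TGACGT, the heart of the element bound by CREB and ATF proteins, on either strand, and in Dusp5 also the CArG boxes bound by serum response factor. The windows are chr17:26508473-26508722 (minus strand) for Dusp1, chr19:53528895-53529144 (plus strand) for Dusp5 and chr10:99262981-99263230 (plus strand) for Dusp6.
Dusp1: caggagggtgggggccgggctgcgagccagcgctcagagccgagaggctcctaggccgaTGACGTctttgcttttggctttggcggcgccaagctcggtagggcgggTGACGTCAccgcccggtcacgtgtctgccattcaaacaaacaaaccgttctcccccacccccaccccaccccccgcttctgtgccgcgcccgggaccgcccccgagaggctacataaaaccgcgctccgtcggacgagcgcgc
Dusp5: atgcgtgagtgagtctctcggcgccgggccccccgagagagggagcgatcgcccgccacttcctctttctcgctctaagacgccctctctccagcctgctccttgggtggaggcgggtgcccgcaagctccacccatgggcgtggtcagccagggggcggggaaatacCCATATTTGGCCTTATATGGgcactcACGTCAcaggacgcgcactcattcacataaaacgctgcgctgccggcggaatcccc
Dusp6: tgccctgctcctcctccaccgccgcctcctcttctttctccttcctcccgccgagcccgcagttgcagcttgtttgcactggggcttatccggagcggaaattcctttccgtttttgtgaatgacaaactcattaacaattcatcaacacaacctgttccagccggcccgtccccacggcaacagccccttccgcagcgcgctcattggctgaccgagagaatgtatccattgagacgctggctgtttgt
The Dusp1 window held 3 matches of the CRE core, of which 2 overlap as a palindrome on opposite strands. The Dusp5 window held 1 CRE core and 2 adjacent CArG boxes, and the Dusp6 window no match of either.

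Of the 10 inhibitors, 7 had a promoter in the RefSeq table: Dusp1, Dusp5, Dusp6, Spry1, Spry2, Spred1 and Spred2. The CRE core was found in 3 of these 7 (Dusp1, Dusp5 and Spred2), and in 6.47% of 32851 windows of the same length. A CArG box was found in 1 of the 7 and in 1.47% of all windows, and an E-box (CACGTG), the element of clock transcription factors, in 1 (Dusp1) and in 6.02%. The AP-1 site TGANTCA (6.75% of all windows), the ETS core CCGGAA (12%) and the glucocorticoid receptor half-site AGAACA (16.1%) were found in 0 of the 7. Both strands were searched, and no match says only that these letters are not in this window. The share of bases that are G or C was 56.0% to 70.8% in the 7 windows, against a median of 52.4% over all windows. The part of this difference in the motif counts was not tested.

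The response to Dexa was compared directly between siCop1 and siCTRL with an interaction term. In KL001, 1 of 10 inhibitors passed, with 0.562% of all genes called: Dusp5, whose rise was smaller after siCop1 by 0.52 on the log2 scale (log2 -0.52, SE 0.103, adjusted p = 0.00860). In DMSO, 0 of 10 passed with edgeR, with 0.67% of all genes called. An unadjusted edgeR p below 0.05 was found there for 7 of the 10 and for 7.6% of all genes tested. DESeq2 called 1 of 10 there, Dusp1. The term for Dusp5 in DMSO was -0.35 (adjusted p = 0.174), and those for Dusp1 were -0.27 in DMSO (adjusted p = 0.0780) and -0.25 in KL001 (adjusted p = 0.110). With no filter on low counts, the Dusp1 term passed on all libraries in DMSO (adjusted p = 0.0107) and in KL001 (0.0186), and under DESeq2 in DMSO (0.0397). It also passed in DMSO without siCop1 DMSO replicate 3 (adjusted p = 0.0347) or siCop1 DMSO Dexa replicate 1 (0.0252), and in KL001 without siCop1 KL001 replicate 2 (0.0323).

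The terms in DMSO and KL001 had the same sign for 9 of the 10 inhibitors, Spry2 being the exception at 0.04 and -0.02. The share of all genes with the same sign in both terms was not computed, so this count has no background to be read against. An averaged term over DMSO and KL001, an analysis added after the separate terms were seen, called 4 of 10, with 1.82% of all genes called. The rise with Dexa was smaller after siCop1 for Dusp1 (term -0.26, SE 0.0489, adjusted p = 0.00188) and Dusp5 (-0.44, SE 0.0733, adjusted p = 0.000445). The fall of Phlda1 was shallower after siCop1 (0.26, SE 0.0649, adjusted p = 0.0236), and Spry4 shifted upward with Dexa relative to siCTRL (0.34, SE 0.0788, adjusted p = 0.0145). The averaged call of Phlda1 was lost when any 1 of 8 libraries was left out: siCTRL DMSO replicates 2 and 3, siCTRL DMSO Dexa replicate 3, siCTRL KL001 Dexa replicates 2 and 3, siCop1 DMSO Dexa replicates 1 and 3, and siCop1 KL001 Dexa replicate 1 (terms 0.23 to 0.26, adjusted p 0.0506 to 0.109). The calls of Dusp1, Dusp5 and Spry4 were made again in all 28 alternatives. Summed markers of other cell types were examined beside these terms. In DMSO with Dexa, 8 squamous epithelium markers summed to 14.1 to 22.3 CPM in siCTRL and 21.4 to 72.2 CPM in siCop1, 8 glandular or airway markers to 4.70 to 8.06 and 15.04 to 15.7 CPM, and 8 macrophage markers to 3.31 to 5.39 and 6.23 to 9.99 CPM. In KL001 with Dexa the sums were 9.96 to 25.4 and 16.3 to 35.4 CPM for squamous, 2.47 to 13.1 and 11.8 to 21.5 CPM for glandular or airway and 2.59 to 4.56 and 7.62 to 15.4 CPM for macrophage markers. With Dexa the macrophage ranges did not overlap in either setting, the squamous ranges overlapped in both, and the glandular or airway ranges overlapped in KL001. Of the 8 macrophage markers 2 had a mean of at least 1 CPM. Adgre1, Ptprc, C1qa, C1qb and Tyrobp had medians of 0 to 0.0416 CPM. Without Dexa the macrophage ranges of siCTRL and siCop1 overlapped, at 4.25 to 5.24 and 4.36 to 9.17 CPM in DMSO. In KL001 without Dexa they were 4.02 to 8.27 and 5.50 to 10.7 CPM, also overlapping. Ranges of further lists also did not overlap when Dexa was present. In DMSO, skeletal muscle markers summed to 4.03 to 11.6 CPM in siCTRL and 1.34 to 1.97 CPM in siCop1. The adipocyte sums were 53.5 to 58.4 and 68.6 to 78.6 CPM, and the fibroblast sums 53294 to 54150 and 46415 to 48031 CPM. In KL001 with Dexa these lists differed in the same directions, without overlap. Endothelium sums were lower after siCop1 without overlap in KL001 with Dexa, but overlapped in DMSO with Dexa. The part of all these markers in the interaction terms was not tested.

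The averaged term of Spry1 was 0.31 (adjusted p = 0.0914), that of Dusp6 0.14 (adjusted p = 0.170) and that of Dusp4 0.35 (SE 0.205, adjusted p = 0.637), so the size for Dusp4 was similar to that of Spry4 but its error was larger. The averaged term of Spred2 was -0.13 (adjusted p = 0.353), and those of Spry2 and Spred1 were 0.01 and -0.06.

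**Figure D3:**
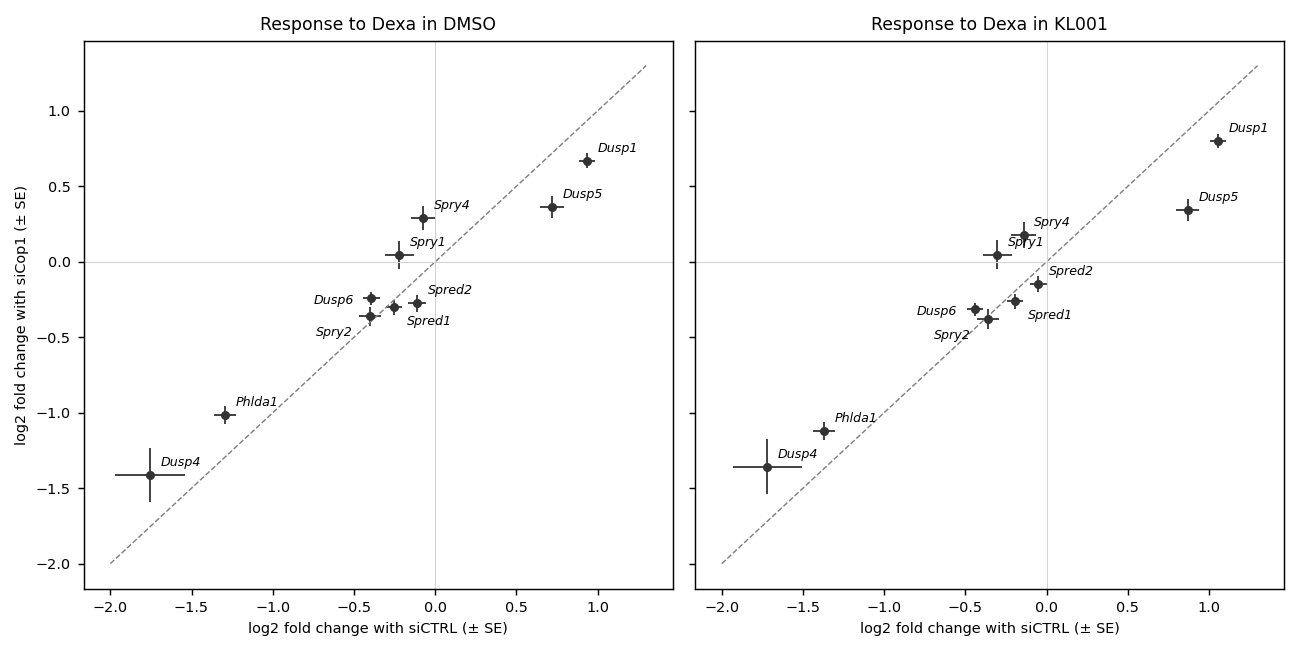
Log2 fold change with Dexa after siCTRL (horizontal axis) and after siCop1 (vertical axis) for each inhibitor, in DMSO (left) and KL001 (right); bars are standard errors and the dashed line marks equal responses. Dusp1, Dusp5, Spred1 and Spred2 lie below the line and Dusp4, Dusp6, Spry1, Spry4 and Phlda1 above it in both panels.

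In the separate settings KL001 changed 0 to 3 of the 10 inhibitors and 4.09% to 10.6% of all genes tested. Without Dexa, edgeR called 0 of 10 in siCTRL, with 6.73% of all genes called, and 0 of 10 in siCop1, with 4.09%. DESeq2 also called 0 in both. An unadjusted edgeR p below 0.05 was found for 0 of 10 in siCTRL (19.3% of all genes) and 2 of 10 in siCop1 (14.8%). In siCTRL the log2 differences were -0.06 to 0.08. Their 95% intervals lay within -0.18 to 0.25 for all inhibitors other than Dusp4, whose interval was -0.30 to 0.42. With Dexa, 2 of 10 were called in siCTRL, with 10.6% of all genes called, and 3 of 10 in siCop1, with 5.46%.

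In siCTRL with Dexa, KL001 went with higher Dusp1 (85.7, 83.8 and 88.7 against 75.0, 74.1 and 77.8 CPM, log2 0.19, adjusted p = 0.00732) and Dusp5 (17.0, 17.3 and 17.5 against 15.5, 14.9 and 13.8 CPM, log2 0.23, adjusted p = 0.0227). In siCop1 with Dexa, Dusp1 was higher (log2 0.27, adjusted p = 0.000296), while Spry4 (log2 -0.33, adjusted p = 0.0108) and Dusp6 (log2 -0.15, adjusted p = 0.0373) were lower. Spry4 held 12.4, 10.9 and 11.9 CPM there against 14.4, 15.5 and 14.3 CPM in DMSO, without overlap. Most of these calls depended on single libraries or on the method. In siCTRL the Dusp1 call was lost without siCTRL KL001 Dexa replicate 3 (adjusted p = 0.0570), and the Dusp5 call without siCTRL DMSO Dexa replicate 3 (0.121) or siCTRL KL001 Dexa replicate 2 (0.0665) or 3 (0.0859), or under DESeq2 (0.0588). In siCop1 the Dusp6 call was lost without any 1 of the 6 libraries (0.0554 to 0.151), under DESeq2 (0.0765) and with no filter (0.0932), and the Spry4 call without siCop1 DMSO Dexa replicate 2 (0.0699) or siCop1 KL001 Dexa replicate 2 (0.0952).

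Averaged over the 4 settings, again an analysis added after the separate values were seen, KL001 called 3 of 10, with 24.1% of all genes called. Dusp1 was higher by a log2 difference of 0.17 (SE 0.0244, adjusted p = 6.09e-06) and Spry4 lower, at -0.16 (SE 0.0394, adjusted p = 0.00231), each in all 28 alternatives. Dusp5 was higher at 0.10 (adjusted p = 0.0395), a call lost in 13 of 28 alternatives, among them leaving out any 1 of 11 libraries (adjusted p 0.0524 to 0.101). The interaction of KL001 with Dexa called 0 of 10 inhibitors in siCTRL (0% of all genes) and 0 of 10 in siCop1 (0.0677%). Each had 0 of 10 at an unadjusted edgeR p below 0.05, where all genes had 6.01% in siCTRL and 4.54% in siCop1. The interaction of siCop1 with KL001 called 0 of 10 without Dexa (0% of all genes), 0 of 10 with Dexa (0.0677%) and 0 of 10 averaged over both (0.447%). Its unadjusted edgeR p was below 0.05 for 0 of 10 without Dexa (6.65% of all genes) and 2 of 10 with Dexa (6.93%). DESeq2 also called 0 of 10 in each of these interactions.

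Over the 8 group means of log2 CPM the inhibitors fell into groups with similar order. Dusp4 and Phlda1 had a Pearson r of 0.993, Spry2 and Phlda1 0.969, and Dusp1 and Dusp5 0.963, whereas Dusp1 and Spred1 had -0.924. These are descriptions over 8 points that share the same libraries and treatments. Deviations of the 24 libraries from their group means gave r between -0.61 and 0.587 over the 45 pairs of inhibitors, with a median of 0.117. In the order of its 8 group means, Dusp6 placed all 4 siCTRL groups below all 4 siCop1 groups, and within each siRNA the 2 Dexa groups below the 2 without. The siCTRL DMSO and siCTRL KL001 groups of Dusp6 overlapped, as did both siCTRL Dexa groups. Dusp1 placed its 4 groups without Dexa lowest, each overlapping its neighbour, then siCop1 DMSO Dexa, then siCTRL DMSO Dexa and siCop1 KL001 Dexa, which overlapped, and siCTRL KL001 Dexa highest.

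Of 11598 other genes with a mean of at least 1 CPM, those closest to Dusp6 over the 8 group means were Ermp1 (r = 0.998), Fez1 (0.996), Pcdhac2 (0.993), Patz1 (0.993) and Cmtm3 (0.992). Those closest to Dusp1 were Rock2 (0.993), Esyt2, Prosc, Acap2 and Gclc (each 0.991).

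The rest of the pathway was read from lists of its other parts, beside the 12.7% of all genes tested that rose and the 14.1% that fell with Dexa in siCTRL DMSO. In siCTRL DMSO with Dexa, 0 of 17 genes of ERK transcriptional output rose and 12 fell, with a median log2 change of -0.30. Egr3 fell from 2.22 to 0.665 CPM and Egr2 from 2.29 to 0.871 CPM; both encode immediate early transcription factors. Of the 10 other feedback inhibitors tested, 2 rose and 6 fell (median -0.35). Errfi1, which encodes an inhibitor of the EGF receptor, rose from 28.2 to 247 CPM (log2 3.13, SE 0.0420, adjusted p = 4.06e-30), and Dusp7, another cytoplasmic ERK phosphatase, from 60.3 to 76.2 CPM. Il17rd, which encodes the Sef inhibitor of FGF signalling, fell from 32.9 to 14.3 CPM, and Dusp10, a phosphatase of p38 and JNK, from 23.1 to 13.9 CPM. Among genes of the glucocorticoid response, 7 of 8 rose and 1 fell, Nr3c1, which encodes the glucocorticoid receptor (108 to 69.5 CPM).

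The ligands, receptors and kinases held calls in both directions with Dexa, where 26.8% of all genes were called either way. Of 8 ligands 2 rose and 2 fell, led by Tgfa, an EGF receptor ligand (10.7 to 29.0 CPM), and Hbegf, another (23.8 to 14.9 CPM). Of 8 receptors 4 rose and 2 fell, with Pdgfra at 82.1 CPM without and 161 CPM with Dexa, and Pdgfrb at 444 and 288 CPM. Of 12 adaptors and Ras genes 0 rose and 5 fell, among them Nf1, which encodes neurofibromin (85.0 to 63.4 CPM). Of 11 genes of the RAF, MEK and ERK cascade 3 rose and 2 fell, with Ksr1, a scaffold of the cascade, rising from 15.5 to 25.8 CPM. Of 10 p38 and JNK pathway kinases 3 rose and 3 fell.

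After siCop1 in DMSO without Dexa, ERK transcriptional output was split, with 4 of 17 genes higher and 5 lower (median log2 change -0.06), and likewise 4 and 5 in DMSO with Dexa (median -0.10). In KL001 the list leaned lower, with 4 higher and 8 lower both without Dexa (median -0.17) and with Dexa (median -0.22). Of all genes tested, 14.5% were higher and 18.2% lower in KL001 without Dexa, and 13.7% and 16.3% in KL001 with Dexa. The shares in DMSO with Dexa were 14.4% and 16.7%. In DMSO without Dexa 12.8% of all genes tested were higher and 16.6% lower, and counts of these small lists near those shares say nothing particular about them. Fosl1, which encodes the AP-1 subunit Fra-1, rose from 11.9 to 29.8 CPM (log2 1.32, SE 0.0626, adjusted p = 5.35e-16) and Ier3 from 27.6 to 35.7 CPM. Etv5, which encodes an ETS factor, fell from 26.4 to 17.1 CPM and Junb from 53.3 to 43.0 CPM. Of the 10 other feedback inhibitors 3 rose and 2 fell, with Errfi1 at 28.2 CPM in siCTRL and 51.2 CPM in siCop1, and Dusp8, a phosphatase of JNK and p38, at 30.5 and 18.5 CPM. Of 8 ligands 3 rose, among them Hbegf (23.8 to 37.6 CPM) and Ereg (13.7 to 19.4 CPM), and 2 fell, Tgfa (10.7 to 7.38 CPM) and Pdgfa (25.4 to 18.8 CPM). Of the kinase cascade 0 of 11 rose and 3 fell, close to the 29.4% of all genes called, among them Map2k1, which encodes MEK1 (155 to 123 CPM). Receptors had 1 higher and 2 lower of 8, adaptors and Ras 2 and 2 of 12, p38 and JNK kinases 4 and 2 of 10, and the glucocorticoid response 1 and 2 of 8. These list comparisons with Dexa and with siCop1 share the 3 siCTRL DMSO libraries as controls.

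**Figure D4:**
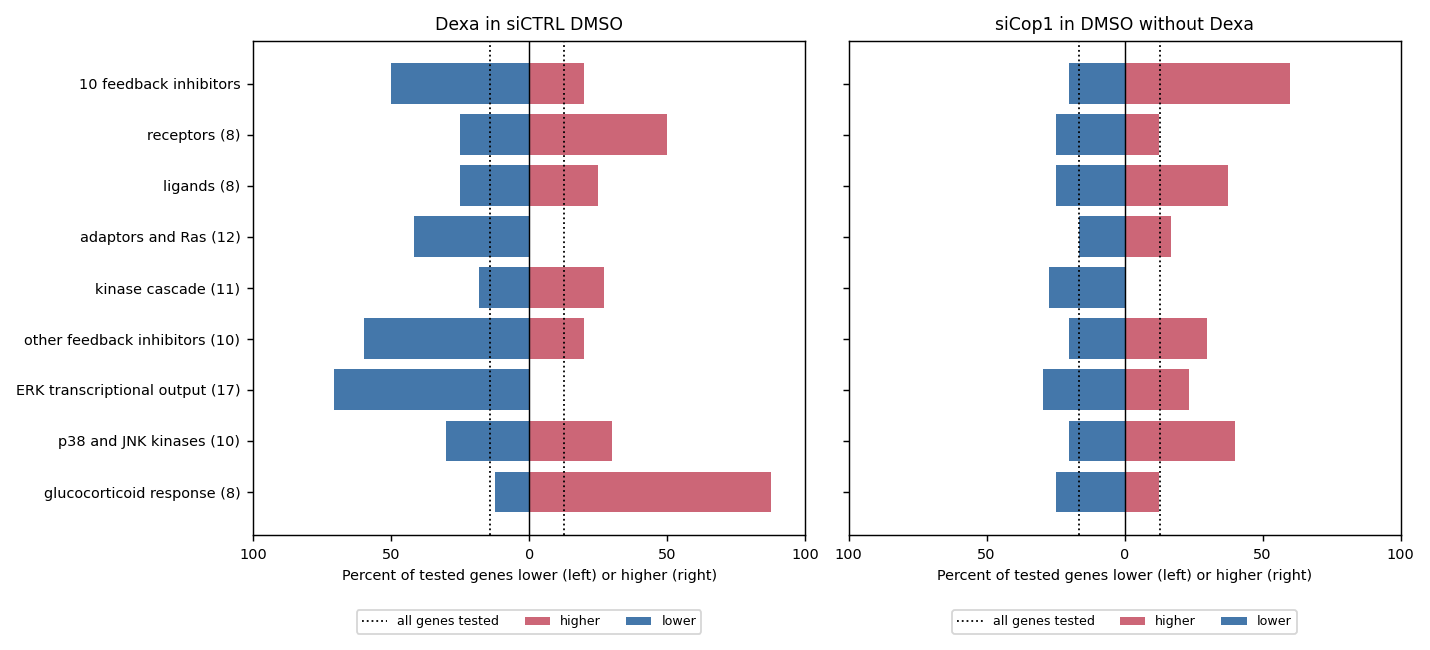
Percent of the genes tested in each list that were lower (bars to the left) or higher (bars to the right) at an adjusted p below 0.05, with Dexa in siCTRL DMSO (left panel) and after siCop1 in DMSO without Dexa (right panel); list sizes are in parentheses and dotted lines give the percent of all 14772 genes tested. With Dexa 12 of 17 genes of ERK transcriptional output and 6 of 10 other feedback inhibitors were lower, and after siCop1 6 of the 10 feedback inhibitors described here were higher.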

How the data were processed

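Polyadenylated RNA was sequenced by the authors as single reads from stranded TruSeq libraries on 3 HiSeq lanes, per the labels' protocols. The submitters' processing notes name bcl2fastq 1.8.4, STAR 2.4.5a, featureCounts, Subread 1.4.6-p3, DESeq2 and Picard 1.126, and the GRCm38 (mm10) build, without settings for strand or shared reads. The authors deposited raw counts per gene symbol, which entered every test. They also deposited a normalized signal per gene, equal to the counts divided by 1 median-of-ratios factor per library (0.862 to 1.117, largest deviation 0.005), which was used only for this check. Columns were matched to libraries by their labels, and 0 were left unused.

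Counts were analysed in R 4.3.3 with edgeR 4.0.16 (TMM scaling, robust quasi-likelihood test, two-sided) on all 24 libraries with 1 mean per group. Genes were kept by filterByExpr (minimum count 10, minimum total 15). Adjusted p-values are by Benjamini-Hochberg over all 14772 genes tested, and a gene was called changed below 0.05. The design gave 12 comparisons between groups and 6 interaction terms. CPM uses TMM-adjusted totals, and standard errors derive from the unshrunken log2 change and its F statistic. The common biological coefficient of variation was 3.71%. The script was tested on simulated data. Replicates differed by more than sampling noise (chi-square per degree of freedom 1.57 to 8.54 over their pairs). Gene positions are from GENCODE (GRCm38) and promoters from RefSeq (GRCm38.p6).

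The 10 members, the pathway lists, the motifs and the tests were chosen with earlier results of these data known. All members were named in each family of comparisons. Of each list, up to 2 genes per sign with the largest change among those called, and a mean level over all libraries of 1 CPM or more, could be named. Genes of similar pattern were the 5 with the highest Pearson r among the genes kept for that ranking. The alternatives were RLE scaling, no filter, DESeq2 1.42.0, a replicate block, fits restricted to the groups in a comparison, and leaving out each library. The averaged terms, and the siCop1 comparisons without libraries holding heart muscle transcripts above 10 CPM, were added after seeing the data. Spry3 was not analysed here.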

Additional observations from a re-analysis of the deposited data

Results flagged for a closer look

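A direct test of the difference in Dexa response between siCop1 and siCTRL passed for Dusp5 in KL001, with an interaction term of -0.52 on the log2 scale (edgeR adjusted p = 0.00860). Dusp5 rose 1.83-fold with Dexa in siCTRL KL001 and 1.27-fold in siCop1 KL001. Averaged over DMSO and KL001, the same difference passed for 4 inhibitors. The term was -0.26 for Dusp1 and -0.44 for Dusp5, which both rose less after siCop1, and 0.34 for Spry4 and 0.26 for Phlda1. The averaged terms were added after the separate ones were seen, and the call of Phlda1 did not survive the omission of any 1 of 8 libraries.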

How the results depend on the processing

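No call on an inhibitor reversed under any alternative. The labels do not say what the replicate numbers mean, and the libraries were not treated as paired. The deposited column names share a stem among same-numbered libraries of an siRNA, so these may be linked within each siRNA. The correlations given here and the replicate block joined equal numbers across both siRNAs, so a link within each siRNA alone was not tested. Correlations of deviations between same-numbered libraries had a median of 0.012 (-0.29 to 0.46, over 0.1 in 19 of 84 pairs). For other numbers the median was -0.0015 (-0.44 to 0.30, over 0.1 in 27 of 168). Of 24 libraries 13 correlated best with their own number, and replicate 2 of all 4 siCTRL groups held heart muscle transcripts (25.7 to 121 CPM), so some link by number is not excluded. With the replicate block all 83 values of the inhibitors kept their status. These 83 include siCop1 by Dexa terms with an unadjusted edgeR p below 0.05 that were not called, for which keeping means staying uncalled. The block moved the all-gene counts by over 1.5 times only for KL001 by Dexa in siCop1 (10 to 5) and siCop1 by KL001 with Dexa (10 to 5). RLE scaling kept the status of all 83 values and moved KL001 by Dexa in siCop1 to 5 genes. DESeq2 kept 76 of 83, lost 6 calls and gained 1, and no filter kept 78, lost 3 and gained 2. The fit on only the groups compared kept 75 of 76.

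Under DESeq2 the inhibitors called were 1 for KL001 in siCTRL with Dexa and 1 for siCop1 by Dexa in DMSO, and all genes called were 3 for KL001 by Dexa in siCTRL, 15 for siCop1 by KL001 without Dexa and 24 with Dexa. Without the filter, 1 inhibitor was called for siCop1 by Dexa in DMSO and 2 in KL001. All genes called without it were 230 and 156 for these terms, 133 and 43 for KL001 by Dexa in siCTRL and siCop1, 61 and 59 for siCop1 by KL001 without and with Dexa, and 106 for its average. Fitted on only the groups compared, KL001 called 225 genes in siCTRL and 950 in siCop1 when Dexa was absent and 1435 in siCop1 when it was present, and the terms siCop1 by Dexa in KL001 and KL001 by Dexa in siCop1 called 52 and 24.

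With 1 library left out, the inhibitors called ranged from 5 to 8 for siCop1 in DMSO without Dexa. For Dexa in siCTRL DMSO they ranged from 7 to 9, with the highest count when siCTRL DMSO replicate 1 was left out. For KL001 they ranged from 0 to 2 in siCTRL with Dexa, and in siCop1 from 0 to 1 without Dexa and from 1 to 2 with it. For siCop1 by Dexa they ranged from 0 to 1 in DMSO and 1 to 2 in KL001. All genes called ranged, for KL001, from 653 to 1165 in siCTRL without Dexa, 928 to 1416 in siCTRL with Dexa and 502 to 611 in siCop1 with Dexa. They ranged from 43 to 94 for siCop1 by Dexa in KL001, 0 to 3 for KL001 by Dexa in siCTRL, 1 to 7 for KL001 by Dexa in siCop1, 0 to 6 for siCop1 by KL001 without Dexa, 2 to 10 with Dexa and 37 to 83 for its average. The cause of these shifts was not tested, other than that each omission leaves fewer libraries. Depth limited Dusp4 most, at 11 to 97 reads per library.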
